A study of Mus musculus with 4 samples.

Results

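Toll-like receptors, NOD-like receptors and the interleukin-1 (IL-1) receptor form a linked set of innate sensors. Of the 53647 genes in the count tables, 10 genes of this set were followed in mouse primary myotubes: the cytosolic NOD receptors *Nod1* and *Nod2* with their kinase *Ripk2* and the mitochondrial family member *Nlrx1*, the Toll-like receptors *Tlr2*, *Tlr3* and *Tlr4*, the IL-1 receptor *Il1r1*, and the shared adaptor *Myd88* with the kinase *Irak2*. They were taken as receptors and proximal adaptors of these pathways, with earlier results of these data known, and all 10 passed the filter on low counts. EDA-A2 is a TNF family ligand of the receptor EDA2R, and the experiment addresses how its signal changes gene expression in muscle cells. Wild-type myoblasts were taken from the limbs of pups aged 2 to 3 days, differentiated in medium with horse serum and harvested at 72 h, and the myotubes either received recombinant EDA-A2 at 250 ng/mL for 24 h (2 libraries) or served as Control (2 libraries). Nothing in the labels says whether the 2 libraries of a group came from separate cultures or pups, so the p-values measure only the spread between these libraries.

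As background, NOD1 and NOD2 recognise fragments of bacterial peptidoglycan in the cytosol and bind RIPK2, which leads to activation of NFκB. TLR2 and TLR4 sense bacterial lipoproteins and lipopolysaccharide at the cell surface, and TLR3 binds double-stranded RNA in endosomes. Toll-like receptors other than TLR3 and the IL-1 receptor share a cytoplasmic domain that recruits MYD88 and, through it, the IRAK kinases.

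In EDA-A2-treated myotubes, *Nod2* and *Il1r1* rose, 1.40-fold and 1.31-fold, and the other 8 genes did not pass the threshold of an adjusted p-value under 0.05. The 2 called are of 10 members, beside 2.45% of all 15173 genes tested that were called higher, 2.13% that were called lower and 4.57% in either direction. No member was called lower by edgeR, none had an unadjusted p-value under 0.05 with a negative change (8.03% of all genes had), and DESeq2 called 0 lower as well. Since the members were chosen with results known, the shares of all genes given beside their counts describe the background and test nothing. In 8 of the 10 genes both treated libraries lay above both Control libraries, a pattern seen in 22.8% of all genes tested. In *Tlr4* both lay below (22.2% of all genes), and in *Myd88* the groups overlapped. The fitted change was above 0 in 9 members, against 49.5% of all genes. The median log2 fold change of the members was 0.26, against -0.00 over all genes tested. Values below are normalized counts, that is, counts scaled to a common library size, errors of means are SD over the 2 libraries of a group, and those of log2 fold changes are standard errors (SE).

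**Figure D1:**
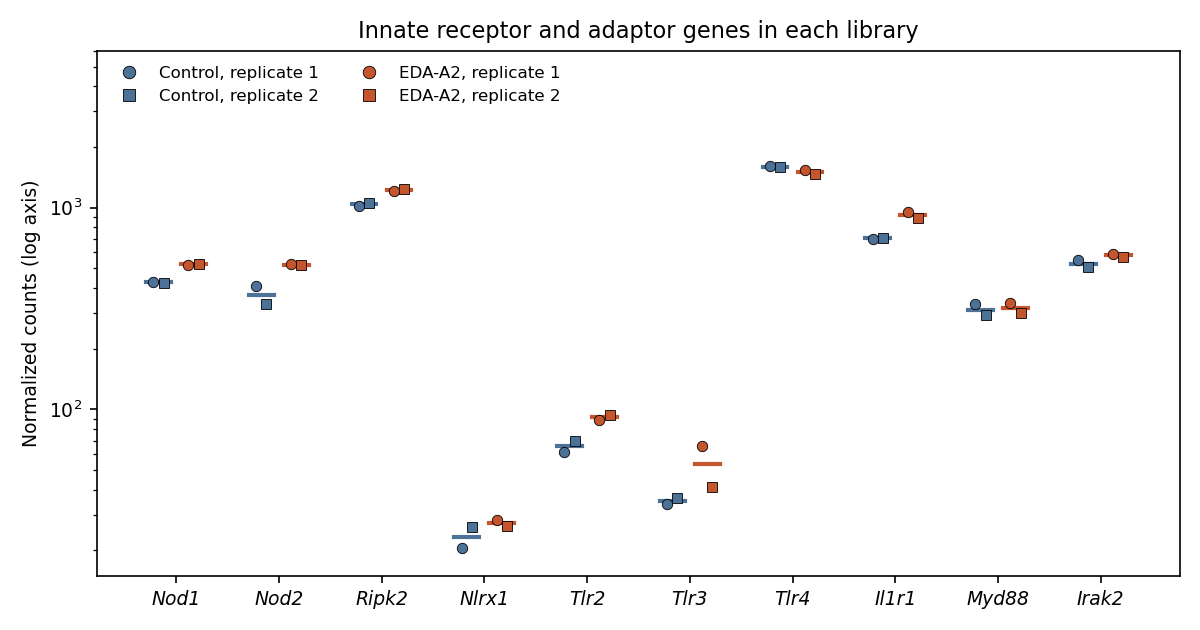
Normalized counts (log axis) of the 10 genes in each library; blue marks Control, orange EDA-A2, circles replicate 1, squares replicate 2, and bars the mean of the 2 libraries of a group. Both EDA-A2 libraries lie above both Control libraries in 8 genes, while *Myd88* overlaps and *Tlr4* lies lower.

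The start regions of the members are shown first. The binding consensus of NFκB, the transcription factor that these receptors activate, was found in 3 members, and a STAT element was also found in 3. RefSeq promoter windows (250 bases before to 50 bases after a start, given for GRCm38.p6) were held for 8 of the 10 genes, in 11 windows, and each was placed on GRCm39 by an exact match. *Ripk2* and *Tlr4* had none. The 10-base NFκB consensus was searched on both strands, as were the interferon-stimulated response core (TTTC, any 2 bases, TTTC) and the STAT element TTCNNNGAA. The NFκB consensus was found in 3 of the 11 windows, those of *Tlr2*, *Tlr3* and the second start of *Il1r1*, and in 8.46% of all 32807 windows of the table. The interferon core was found in 1 window, that of *Myd88* (3.43% of all windows), and the STAT element in 4 windows, of *Nod1*, *Nlrx1* and *Myd88* (8.29% of all). Both *Nlrx1* windows hold the same site, since they overlap. In *Myd88* the STAT and interferon motifs overlapped, beginning at bases -46 and -40 from the start. A match describes these letters only.

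The stretches printed here belong to both genes called and to *Tlr2*, which holds the most NFκB matches. They are the bases before the start that lie in no annotated exon of the gene, on GRCm39 and 5′ to 3′, with NFκB consensus matches in capitals:
Nod2, chr8:89373725-89373942, plus strand: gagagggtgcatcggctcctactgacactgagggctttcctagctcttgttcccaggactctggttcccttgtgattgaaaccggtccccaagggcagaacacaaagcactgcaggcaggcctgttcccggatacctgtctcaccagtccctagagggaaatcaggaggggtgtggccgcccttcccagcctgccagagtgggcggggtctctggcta
Il1r1, first start, chr1:40263990-40264173, plus strand: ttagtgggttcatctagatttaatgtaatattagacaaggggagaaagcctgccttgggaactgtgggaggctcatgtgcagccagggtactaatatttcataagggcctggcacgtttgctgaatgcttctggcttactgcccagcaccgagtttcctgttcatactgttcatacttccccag
Il1r1, second start, chr1:40305496-40305697, plus strand: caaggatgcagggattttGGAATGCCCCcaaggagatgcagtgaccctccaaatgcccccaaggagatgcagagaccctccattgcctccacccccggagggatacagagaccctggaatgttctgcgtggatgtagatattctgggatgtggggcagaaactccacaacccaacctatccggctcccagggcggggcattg
Tlr2, chr3:83749075-83749165, minus strand: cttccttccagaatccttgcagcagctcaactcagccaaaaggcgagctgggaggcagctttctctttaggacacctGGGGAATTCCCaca

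*Tlr2* shows 2 overlapping matches, on positions -173 and -172, as 1 run of capitals, and another at -8 lies in an annotated exon and is not printed. *Il1r1* has its match at -232 before the second start, and none before the first. The *Nod2* stretch contains none of the 3 motifs. The *Tlr3* match, at -211, falls in an annotated exon and is not printed.

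NOD receptors and their kinase came first in the order of roles. *Nod2* (ENSMUSG00000055994, chromosome 8 from 89373943 to 89415102, GRCm39), the receptor for muramyl dipeptide, had 409 and 334 normalized counts in Control replicates 1 and 2 and 524 and 519 in EDA-A2 replicates 1 and 2. The treated libraries were nearly equal and both above the Control libraries, which differed more from each other. The means were 371 ± 53.2 and 522 ± 3.89 (n = 2 each), and the log2 fold change was 0.49 (SE 0.12, 95% interval 0.24 to 0.74), with an adjusted p of 0.0236 in the quasi-likelihood test of edgeR after the Benjamini-Hochberg correction. The call did not survive the removal of any single library: the log2 fold change was 0.65 and 0.35 when Control replicate 1 or 2 was left out and 0.48 and 0.50 when EDA-A2 replicate 1 or 2 was, and the adjusted p in edgeR ranged from 0.0944 to 0.270. With no filter on low counts it was 0.245. *Nod2* shares 688 exonic bases with the long non-coding *Gm64159* on the opposite strand, which has no entry in the count tables. The *Nod2* count is therefore uncertain if strand was not used.

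*Nod1* (ENSMUSG00000038058, chromosome 6 from 54900927 to 54949647), the receptor for diaminopimelic acid-containing fragments, had 431 and 424 normalized counts in Control and 519 and 529 after EDA-A2. Replicates lay close together and the groups did not overlap. Its log2 fold change of 0.29 (SE 0.10, interval 0.08 to 0.51) had an unadjusted p of 0.0106 in edgeR and an adjusted p of 0.131, over the threshold. *Ripk2* (ENSMUSG00000041135, chromosome 4 from 16121400 to 16163796), the kinase that both receptors bind, had 1025 and 1057 normalized counts in Control and 1214 and 1231 after EDA-A2. This gene also separated the groups, by a smaller step relative to its level, with a log2 fold change of 0.23 (interval 0.06 to 0.40) and an adjusted p of 0.125 in edgeR. *Ripk2* shares 113 exonic bases with *Parail* on the opposite strand, which had 56 and 46 counts in Control and 82 and 69 after EDA-A2. The intervals of *Nod1*, *Nod2* and *Ripk2* overlap, and differences between their changes were not tested.

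*Nlrx1* (ENSMUSG00000032109, chromosome 9 from 44164011 to 44179896), a NOD family protein of mitochondria, was near the bottom of detection. It had 20 and 26 raw counts in Control and 29 and 27 after EDA-A2. In normalized counts the higher Control library (26.2) lay only just under the lower treated one (26.5). With a log2 fold change of 0.23 and an interval of -0.49 to 0.95 (adjusted p = 0.838 in edgeR), neither a rise nor a fall of that size was detectable at this depth.

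Among the Toll-like receptors, *Tlr2* and *Tlr3* were scarce and had higher values after treatment, while the abundant *Tlr4* had slightly lower ones, and none passed the test. *Tlr2* (ENSMUSG00000027995, chromosome 3 from 83743576 to 83749074), which senses lipoproteins together with TLR1 or TLR6, had 61.8 and 69.6 normalized counts in Control and 88.2 and 94.3 after EDA-A2. The groups were separate, and the log2 fold change of 0.47 was close to that of *Nod2*, but its SE was 0.21 (interval 0.02 to 0.93, unadjusted p = 0.0428, adjusted p = 0.296 in edgeR). *Tlr3* (ENSMUSG00000031639, chromosome 8 from 45848702 to 45864117), the endosomal receptor of double-stranded RNA, had 34.0 and 36.3 normalized counts in Control and 65.7 and 41.3 in EDA-A2 replicates 1 and 2. The 2 treated libraries differed more from each other than the lower one did from Control. Its log2 fold change of 0.60 (interval -0.03 to 1.24, adjusted p = 0.358 in edgeR) was the highest fitted value of the 10, and it was 0.23 when EDA-A2 replicate 1 was left out and 0.90 when EDA-A2 replicate 2 was.

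*Tlr4* (ENSMUSG00000039005, chromosome 4 from 66745783 to 66849936), the lipopolysaccharide receptor, had 1605 and 1587 normalized counts in Control and 1538 and 1466 after EDA-A2. Both treated libraries were lower, by a step that was small beside the level itself. The log2 fold change was -0.09 (interval -0.25 to 0.07, adjusted p = 0.662 in edgeR), and it was -0.03 under scaling to total counts, where the groups overlapped. The upper bound of the *Tlr4* interval lay below the lower bounds for *Nod2* and *Il1r1*, and the differences themselves were not tested.

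*Il1r1* (ENSMUSG00000026072, chromosome 1 from 40264174 to 40356417), the signalling receptor for IL-1α and IL-1β, was the second gene that rose. It had 703 and 707 normalized counts in Control and 954 and 890.4 after EDA-A2. The Control libraries were almost equal, and both treated libraries stood well above them. From 705 ± 2.98 to 922 ± 44.8 normalized counts (n = 2 each), the log2 fold change was 0.39 (SE 0.09, interval 0.20 to 0.57), with an adjusted p of 0.0173 in edgeR. With Control replicate 1, Control replicate 2, EDA-A2 replicate 1 or EDA-A2 replicate 2 left out it was 0.39, 0.39, 0.34 or 0.43, with adjusted p from 0.0668 to 0.301 in edgeR, so the size kept within this range while the call was lost. With no filter on low counts the adjusted p was 0.155.

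The shared adaptor and the kinase were not called. *Myd88* (ENSMUSG00000032508, chromosome 9 from 119165000 to 119170486), which links Toll-like and IL-1 receptors to the IRAK kinases, had 332 and 293 normalized counts in Control and 335 and 301 after EDA-A2. The values interleaved, and the log2 fold change was 0.02 (interval -0.24 to 0.29, adjusted p = 0.959 in edgeR). Its sign was not settled: it was -0.06 when Control replicate 2 was left out and -0.05 when EDA-A2 replicate 1 was. *Myd88* shares 628 exonic bases with *Acaa1a* on the opposite strand, which had 1613, 1570, 1520 and 1518 counts. The strand setting of the counting is not given in the sources used here, so how read pairs in the shared bases were counted is not known. Over all genes, HTSeq set aside 0.946% to 0.986% of pairs per library as ambiguous. *Nlrx1*, *Tlr3*, *Tlr4* and *Irak2* also share exonic bases with genes on the opposite strand, which had 0 or 1 counts per library where they were measured. *Irak2* (ENSMUSG00000060477, chromosome 6 from 113615386 to 113672470), a kinase that acts with MYD88, had 549 and 508 normalized counts in Control and 587 and 573 after EDA-A2. The treated libraries were higher by little more than the gap between the Control libraries (log2 fold change 0.13, interval -0.07 to 0.34, adjusted p = 0.591 in edgeR).

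**Figure D2:**
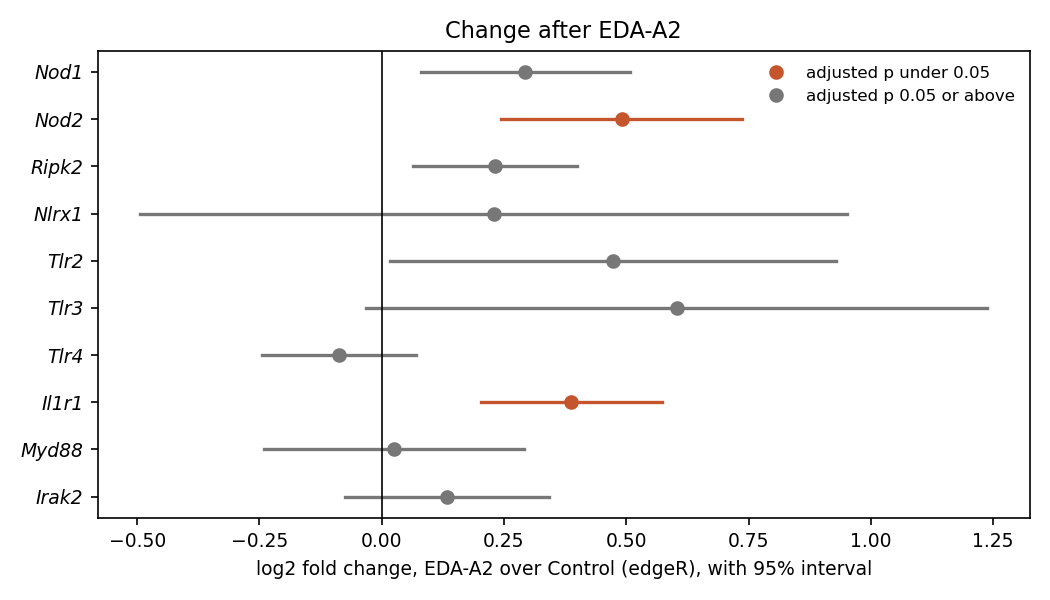
Log2 fold change of each gene after EDA-A2 against Control from edgeR, with its 95% interval; orange marks an adjusted p under 0.05. *Nod2* (0.49) and *Il1r1* (0.39) are the genes called, and the intervals of *Nlrx1* and *Tlr3* are the widest.

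At an unadjusted p-value under 0.05, 5 of the 10 genes were higher in edgeR (*Nod1*, *Nod2*, *Ripk2*, *Tlr2* and *Il1r1*), where 7.61% of all genes tested were. These 5 include the whole NOD receptor and kinase group other than *Nlrx1*. The 5 without such a p are *Nlrx1*, *Tlr3*, *Tlr4*, *Myd88* and *Irak2*.

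To compare levels between genes, counts were divided by exon length and depth (FPKM, the usual value per kilobase of exon scaled to the total counts on genes). In Control, *Tlr4* stood at the top with 7.52 to 7.58 FPKM, followed by *Ripk2* (5.75 to 6.04), *Il1r1* (3.38 to 3.47) and *Irak2* (2.82 to 2.99), each apart from the next. *Myd88* (2.53 to 2.80), *Nod2* (2.23 to 2.68) and *Nod1* (2.385 to 2.391) came below *Irak2* in Control, and neighbours in this order overlapped.

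After EDA-A2 the ranges of *Tlr4* (7.16 to 7.60) and *Ripk2* (7.186 to 7.193) overlapped, and *Il1r1* (4.47 to 4.85) came next. *Nod2* (3.54 to 3.62) then lay above *Irak2* (3.25 to 3.37), *Nod1* (3.03 to 3.05) and *Myd88* (2.65 to 2.99), and none of these ranges overlapped. The difference in order between the groups was not tested.

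*Tlr2* (0.369 to 0.423 FPKM in Control and 0.556 to 0.587 after EDA-A2), *Tlr3* (0.209 to 0.227 and 0.264 to 0.425) and *Nlrx1* (0.0865 to 0.112 and 0.116 to 0.126) lay lower in this order, apart from each other within each group. By mean level over the 4 libraries, *Tlr4* stood at the 71.0th percentile of the genes tested and *Nlrx1* at the 4.03rd. With the longest annotated transcript as the length, the mean of *Irak2* (5.07 FPKM) came above *Il1r1* (4.34), and *Tlr4* (12.7) and *Ripk2* (9.14) stayed on top.

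**Figure D3:**
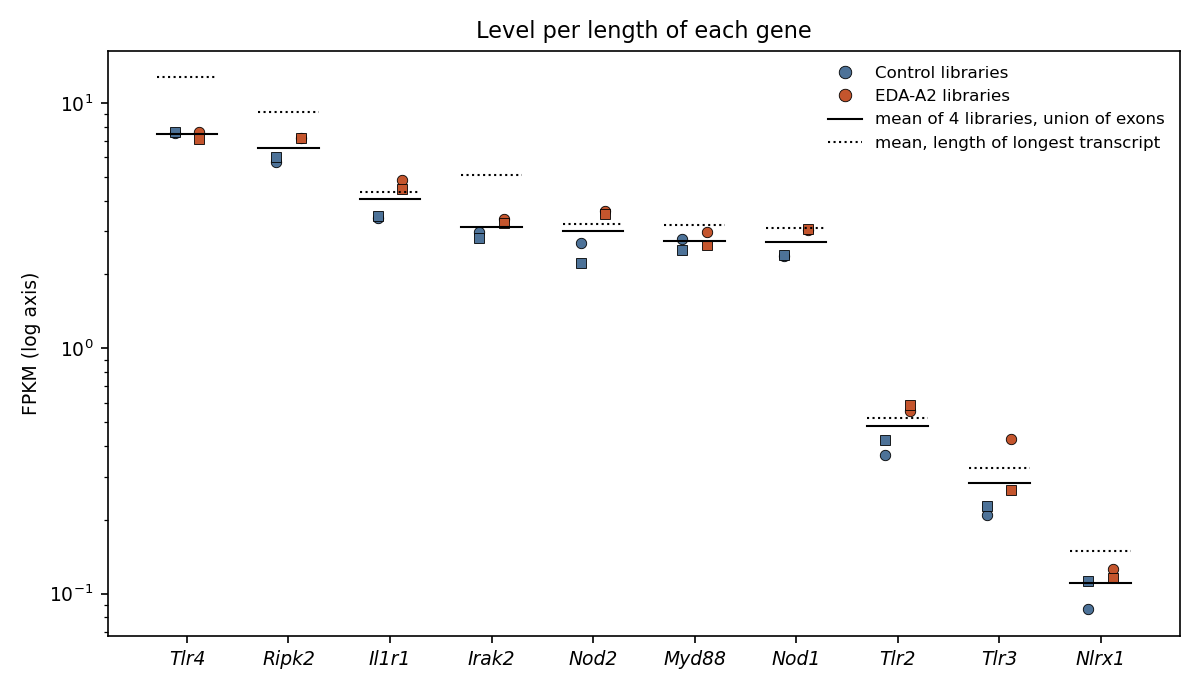
FPKM (log axis) of the 10 genes in order of their mean level; blue marks Control and orange EDA-A2 libraries, solid lines the mean over 4 libraries and dotted lines the mean with the longest transcript as length. *Tlr4* and *Ripk2* lead, and *Tlr2*, *Tlr3* and *Nlrx1* lie below 1 FPKM.

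Around the 10 genes, 89 further genes of the same pathways were read from the same fit, in 6 lists. Of these, 48 passed the filter, and their median log2 fold change was 0.04. The fitted change was positive in 33 of them and negative in 15, where 49.5% of all genes tested had a positive one. No gene of these lists was called by edgeR in either direction, 7 had an unadjusted p-value under 0.05, all higher, and DESeq2 called none. Over all genes tested, 7.61% had such a p-value with a higher level. In 15 of the 48 both treated libraries lay above both Control libraries (22.8% of all genes tested), and in 4 they lay below (22.2% of all).

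Of 18 further Toll-like receptors and co-receptors, 8 were tested, 6 with a positive fitted change, and their median was 0.09. *Hsp90b1*, the chaperone that folds these receptors and the most abundant gene of the list at 335 FPKM, had a log2 fold change of 0.01 (interval -0.16 to 0.17). *Cd14*, the co-receptor that hands lipopolysaccharide to TLR4, had 11.3 and 17.1 normalized counts in Control and 29.4 and 25.6 after EDA-A2. The groups of *Cd14* were separate at this low level, with a log2 fold change of 0.94 (interval 0.13 to 1.75, SE 0.38, adjusted p = 0.229 in edgeR). *Tlr6*, a partner of TLR2, had 422 and 381 normalized counts in Control and 374 and 357 after EDA-A2 (log2 fold change -0.14, adjusted p = 0.652 in edgeR). *Ly96*, the TLR4 partner MD-2, had 60.6 ± 8.45 and 72.2 ± 18.9 normalized counts, with overlapping groups. In 8 genes of this list, among them *Tlr7*, *Tlr8* and *Tlr9*, no library had more than 3 counts, which is also the level that a count of 0 allows (0.101 to 0.102 CPM).

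Of 19 adaptors, kinases and brakes, 17 were tested, 10 with a positive and 7 with a negative fitted change, and the median was 0.01. *Map3k7*, which encodes the kinase TAK1 below IRAK and RIPK2, had 3381 and 3296 normalized counts in Control and 4024 and 3730 after EDA-A2. Its groups were separate (log2 fold change 0.22, SE 0.07, adjusted p = 0.105 in edgeR), and *Map3k7* was called under scaling to total counts (adjusted p = 0.0439 in edgeR) and with a replicate block (0.0460). Under these settings 3.2% and 3.54% of all genes tested were called higher. For *Tab3*, a binding partner of TAK1, the log2 fold change was 0.26 (interval 0.01 to 0.50, adjusted p = 0.296 in edgeR), and *Tab2*, the list's most abundant gene at 26.9 FPKM, had 0.06 (interval -0.08 to 0.20).

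Of 9 further receptors of the IL-1 family, 5 were tested, with a median of 0.02. The decoy receptor *Il1r2*, which binds IL-1 without signalling, had 2, 11, 15 and 14 raw counts in the 4 libraries (log2 fold change 1.09, interval -0.17 to 2.35), and its fitted change was 0.36 without Control replicate 1 and 2.72 when Control replicate 2 was left out. *Il1rl1*, the IL-33 receptor, had 10, 23, 15 and 6 counts (log2 fold change -0.70, interval -1.84 to 0.44), and its fitted change was 0.00 without Control replicate 2. Both genes were too scarce for changes of this size to be told from replicate spread. *Il1rap*, the accessory chain that IL1R1 needs to signal, had 544 ± 47.2 and 552 ± 36.4 normalized counts, and its interval of -0.22 to 0.24 holds changes of either sign. *Il18rap*, the accessory chain of the IL-18 receptor and the most abundant gene of the list at 2.06 FPKM, had a log2 fold change of 0.06 (interval -0.20 to 0.32).

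Ligands of the IL-1 family ranged from 0 counts to the 274 to 323 of *Il33*. Of 11 ligands and antagonists, 4 were tested, with a median of 0.14, and 5 (*Il36a*, *Il36b*, *Il36g*, *Il36rn* and *Il1f10*) had 0 counts in all 4 libraries. For IL-1 itself, *Il1a* had 1, 2, 1 and 3 counts and *Il1b* had 4, 3, 0 and 4 in Control replicates 1 and 2 and EDA-A2 replicates 1 and 2. Both messages of the ligands of IL1R1 were therefore at about the floor of 3 counts in treated and untreated cultures, while the receptor had 682 to 973 counts. *Il18* had 75.2 and 73.6 normalized counts in Control and 113.7 and 96.3 after EDA-A2, with separate groups (log2 fold change 0.50, interval 0.06 to 0.93, adjusted p = 0.234 in edgeR). *Il18bp*, its soluble antagonist, had a log2 fold change of -0.38 (interval -0.88 to 0.11), and *Il33*, the most abundant ligand per exon length, had 0.06 (interval -0.21 to 0.32).

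Of 12 NOD pathway partners and peptide transporters, 8 were tested, with a median of 0.02. *Arhgef2*, whose product GEF-H1 takes part in NOD signalling, was the most abundant at 32.1 FPKM, with 11044 and 10576 normalized counts in Control and 12028 and 11911 after EDA-A2. The groups were separate by a small step (log2 fold change 0.15, interval 0.01 to 0.29, adjusted p = 0.296 in edgeR). *Atg16l1*, an autophagy gene linked to NOD2, had a log2 fold change of -0.13 (interval -0.29 to 0.03).

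Of 20 further NLR and inflammasome genes, 6 were tested, and their median log2 fold change was 0.25. *Gsdmd*, the pore-forming gasdermin D, had 110.2 and 141 normalized counts in Control and 176 and 192 after EDA-A2. With separate groups, its log2 fold change was 0.55 (interval 0.18 to 0.91, adjusted p = 0.0923 in edgeR), and *Gsdmd* was called with a replicate block (adjusted p = 0.0474 in edgeR). With that block 3.54% of all genes tested were called higher. *Casp4*, which encodes the caspase-11 that cleaves gasdermin D and was the list's most abundant gene at 2.00 FPKM, had a log2 fold change of 0.29 (interval 0.02 to 0.56, adjusted p = 0.276 in edgeR). The inflammasome sensor *Nlrp3* had 2, 2, 4 and 0 counts and *Casp1* 0, 2, 3 and 1.

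**Figure D4:**
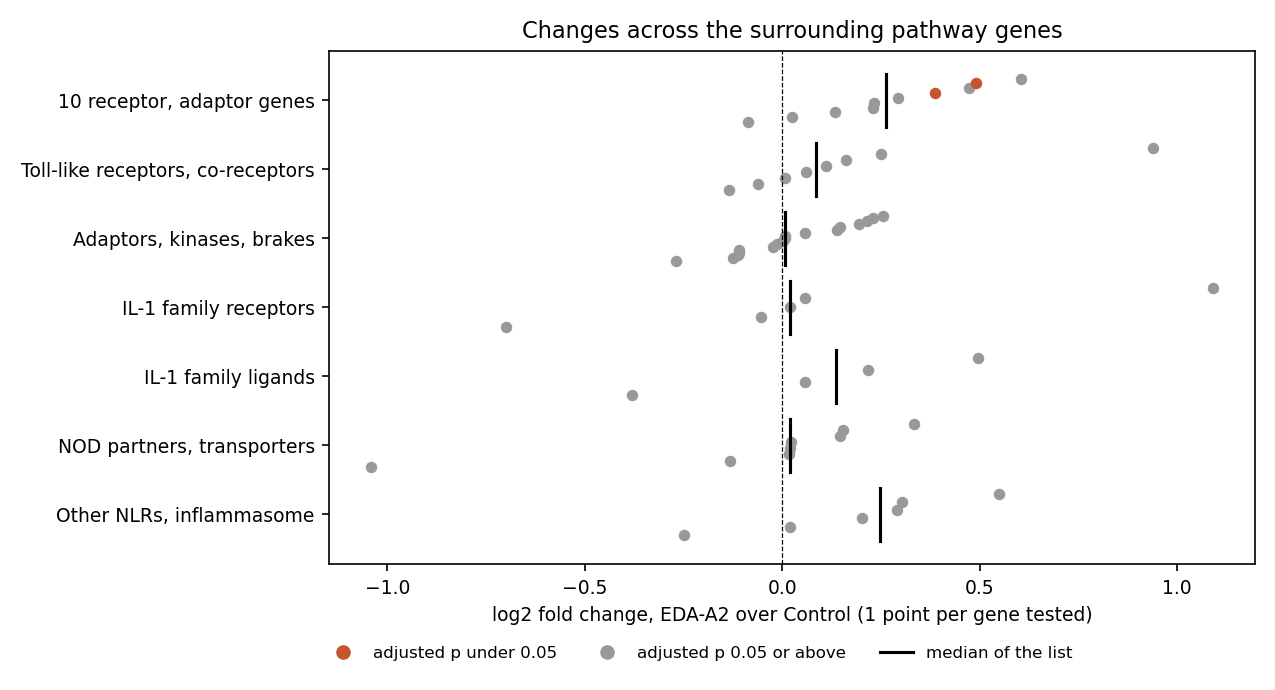
Log2 fold change after EDA-A2 of every gene tested (1 point each) for the 10 genes and the 6 surrounding lists; black bars mark the median of a list and orange points an adjusted p under 0.05. Points called appear in the top row only, and the medians run from 0.01 to 0.26.

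Markers of other cells were read beside these values, because several of the 10 genes are also well known from macrophages. Of 9 macrophage markers, *Ptprc* had 0 to 2 counts per library, *Adgre1* 0 to 1, *Fcgr1* 0 and *Aif1* 0 to 1 and *Lyz2* 1 to 3, while *Csf1r* had 1 to 8. The other 3 markers (*Itgam*, *Mrc1* and *Cd68*) passed the filter, and all 3 had a positive fitted change. The median of these changes was 0.32 on the log2 scale, and edgeR called none of them. *Cd68* had 55.6 and 63.5 normalized counts in Control and 79.4 and 67.8 after EDA-A2, with separate groups (log2 fold change 0.30, interval -0.19 to 0.80, adjusted p = 0.619 in edgeR). The summed level of the list was 298 and 257 normalized counts in Control and 410 and 306 after EDA-A2, most of it from *Mrc1*. *Itgam* had higher values after treatment at a low level, without passing the test (18.3 ± 0.279 against 34.8 ± 4.79 normalized counts, log2 fold change 0.92, unadjusted p = 0.0161, adjusted p = 0.168 in edgeR). Neutrophil and mast cell markers and those of T and B cells had no gene that passed the filter. Of 6 endothelial markers 2 were tested, both with a positive fitted change (median 0.32), and 0 were called by edgeR. In both genes the treated libraries lay above both Control libraries, as in 22.8% of all genes tested. The endothelial sums were 140.1 and 157 in Control against 179 and 167 normalized counts after EDA-A2.

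Fibroblast markers summed to 50490 and 52749 normalized counts in Control and 48402 and 49198 after EDA-A2, mostly *Col3a1*, with *Lum* at 0. Of 6 markers 5 were tested, 3 with a positive and 2 with a negative fitted change (median 0.13), and 0 were called by edgeR. *Dcn* had a log2 fold change of 0.48 with separate groups (unadjusted p = 0.0355, adjusted p = 0.267 in edgeR) and *Col1a1* -0.46 with overlapping groups (unadjusted p = 0.0251, adjusted p = 0.221). Myotube markers were abundant in every library, with lower sums after treatment (724706 and 694928 in Control against 527867 and 528360), mostly *Myh3* and *Acta1*. Of 10 genes 4 were called lower and 1 higher, beside 2.13% and 2.45% of all genes tested. The gene called higher was *Mymx* (log2 fold change 1.22, adjusted p = 2.95e-08 in edgeR). Myoblast markers also had lower sums, 8892 and 7615 against 7114 and 6767, with 1 of 4 called lower, beside the same 2.13% of all genes. Whether the values of any of these lists bear on *Nod2* and *Il1r1* was not tested, and in bulk RNA a change in the number of cells of a type cannot be told apart from a change of RNA per cell. Counts on genes came to 29444155 to 29746863 per library.

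The values of each member under the other processing choices varied little except when a library was left out. Over the scalings, filters, tests and gene sets, *Nod2* lay between 0.49 and 0.55 on the log2 scale and *Il1r1* between 0.38 and 0.44. No other member was called under any of them. *Nod2* and *Il1r1* were called with DESeq2 size factors (2.44% of all genes called higher), upper quartile factors (2.36%), total counts (3.2%), at least 10 counts in every library (2.49%), the Wald test of DESeq2 (1.94%), the replicate number as a block (3.54%) and protein-coding genes alone (2.67%). They were not called with no filter (0.251%). With a library left out, the share of all genes called higher was 0% for either Control library, 1.52% for EDA-A2 replicate 1 and 1.32% for EDA-A2 replicate 2.

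**Figure D5:**
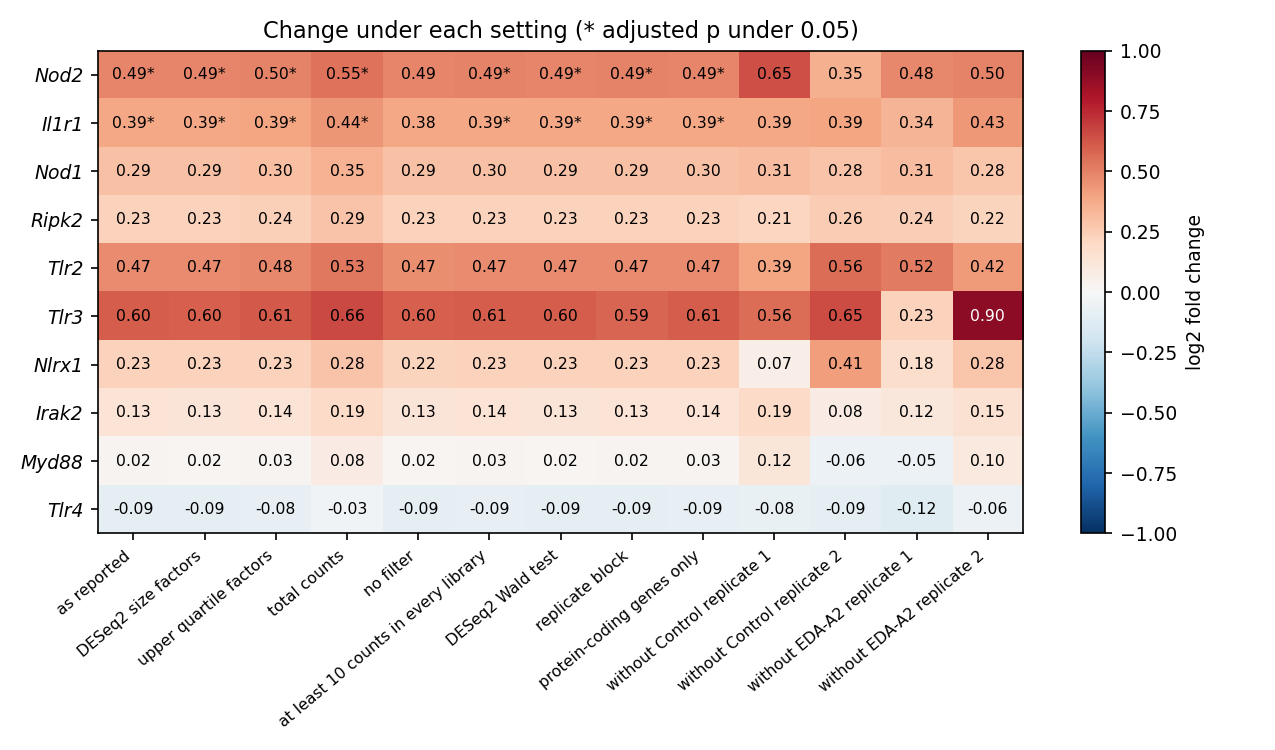
Log2 fold change of each gene (rows) under each processing choice (columns), with the colour and the printed value giving the size and an asterisk marking an adjusted p under 0.05. *Nod2* and *Il1r1* carry an asterisk in 8 of 13 columns and lose it with no filter and without each library.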

How the data were processed

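RNA of 4 libraries of mouse primary myotubes was measured by stranded, polyadenylated RNA sequencing. Per the labels and the study's methods, the authors checked reads with FastQC 0.11.9 and MultiQC 1.12, trimmed them with Trim Galore 0.6.5, aligned them to GRCm39 with STAR 2.7.3a and counted them per gene with HTSeq 0.11.1. The deposited values are raw counts of read pairs on Ensembl genes, in 1 table for each library. The annotation release and strand option are not given in the sources used here. HTSeq's summary lines, 12.2% to 13.0% of pairs, were left out.

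Symbols, positions and exon lengths came from GENCODE M39 (GRCm39), which matched 52610 of 53647 genes. Counts were tested in R 4.3.3 with edgeR 4.0.16 (TMM scaling, filterByExpr at its count minimum of 10 and total minimum of 15, quasi-likelihood test, condition as the only term), and p-values were adjusted by Benjamini-Hochberg over all genes tested. Standard errors were taken from the log2 fold change and the F statistic. DESeq2 1.42.0 served as an alternative. Replicates differed beyond sampling noise (chi-square per gene 9.33 in Control and 4.45 in EDA-A2). The fits were tested on simulated data. Totals of 29444155 to 29746863 counts bear on counting error only, not on the spread between libraries. Reads carry no molecular identifiers.

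The members and lists were chosen with earlier results of these data known. In each list the gene with the highest FPKM and, as none was called, the 2 genes with the smallest p-value are named. Receptor partners (*Ly96*, *Il1rap*), ligands (*Il1a*, *Il1b*) and genes at or near 0 counts were named after their values were seen.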

Additional observations from a re-analysis of the deposited data

How the results depend on the processing

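With 2 libraries per group, every call on a member rested on all 4 of them: 2 members were called higher as reported and 0 to 0 with each library left out in turn, in fits where the lone library of a group is assumed to vary like the other group. Over all genes, 371 were called higher and 323 lower, and leaving out a library gave 0 to 238 higher and 0 to 170 lower, so the loss is not particular to the members. The median log2 fold change of the members ranged from 0.24 to 0.32 over these fits and was 0.32 under scaling to total counts. With no filter, 25545 genes were tested, 0 members were called by edgeR (5 had an unadjusted p-value under 0.05), and 64 genes were called higher and 22 lower. Under total counts 194 genes were called lower. Of the 48 other pathway genes tested, 1 was called higher there, *Map3k7*, beside 3.2% of all genes tested. Total counts moved the median of all genes from -0.00 to 0.05.

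The labels number the libraries of both groups alike but do not say that a number marks a shared culture, and deviations of same-numbered libraries correlated weakly (r = 0.105 across genes). With the replicate number as a block, 537 genes were called higher (3.54% of all tested) and 529 lower, with *Nod2* and *Il1r1* still called. Of the 48 other pathway genes tested, 2 were called higher, *Map3k7* and *Gsdmd*.

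Of 120 values of the members' log2 fold changes under alternatives, 108 kept direction and side of the threshold, 10 kept direction but lost the call (*Nod2* and *Il1r1*, with no filter and without each library), and 2 changed sign, both *Myd88*. With each library left out in turn, *Myd88* ranged from -0.0602 to 0.118, *Hsp90b1* from -0.0764 to 0.0968, *Il18rap* from -0.0772 to 0.214, *Il1rl1* from -1.49 to 0.0012 and *Il33* from -0.0337 to 0.141. The cause was not tested.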

Other observations

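On chromosome 1 of GRCm39, the receptor genes of the IL-1 family stand side by side in the order *Il1r2*, *Il1r1*, *Il1rl2*, *Il1rl1*, *Il18r1* and *Il18rap*, all on the plus strand. Only *Il1r1* (4.04 FPKM) and *Il18rap* (2.06 FPKM) at the far end were expressed at more than 1 FPKM, while the means of the 4 genes beside and between them were 0.141, 0.00615, 0.0662 and 0 FPKM. *Il18rap* had 351, 439, 444 and 410 counts in Control replicates 1 and 2 and EDA-A2 replicates 1 and 2. *Il18r1*, the ligand-binding chain of the same receptor, had 0 counts in all 4 libraries, which allows up to 3 counts in each. A comparable imbalance was seen for the receptors that pair with TLR2: *Tlr6* had 410, 378, 382 and 363 counts and its neighbour *Tlr1* on chromosome 5 had 7, 3, 2 and 6. These genes were singled out after their values were seen.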
